A study of Homo sapiens with 6 samples.

Results

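The Sprouty, Spred and PEA3 genes code for feedback inhibitors of the RAS to ERK pathway and for transcription factors that respond to it. Of 58735 genes in the deposited table, 9 were chosen by their gene name: the Sprouty genes SPRY1, SPRY2 and SPRY4, the Spred genes SPRED1, SPRED2 and SPRED3, and the PEA3 genes ETV1, ETV4 and ETV5. Each name matched 1 gene. RNA was sequenced from HaCaT cells, human keratinocytes that became immortal in culture, labelled as wild type in every sample. There were 3 samples treated with dacomitinib for 48 h and 3 control samples. Dacomitinib binds EGFR and its relatives covalently and blocks their kinase activity. The series asks which cell pathways differ between them. The text of the series attaches DMSO to the experimental group, while the sources used here give neither the dose of dacomitinib nor the vehicle of the controls. All samples are of 1 cell line, and the labels do not name separate cultures within a group. The p-values below therefore reflect only how far these libraries differ, which may be technical spread.

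When a ligand binds EGFR, the signal passes through RAS, RAF and MEK to the kinase ERK. Sprouty and Spred proteins are inhibitors of this route, and ERK activity raises the RNA of several of them, which closes a negative feedback loop. Spred proteins recruit neurofibromin, the product of NF1, which switches RAS off, while Sprouty proteins act between the receptor and RAF. ETV1, ETV4 and ETV5 are the PEA3 group of ETS transcription factors. Their genes are held down by the repressor CIC, which ERK signalling is known to inactivate, and their RNA is widely used as a readout of ERK output.

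Control columns were matched to control samples by letter and number. The other 3 columns have a letter that no label uses. They were taken as the dacomitinib samples because no other group remained, so their numbers only name them and every direction below rests on that assignment. The libraries held 14960650 to 16179273 fragments on genes. Values are FPKM, fragments per kilobase of gene scaled to the size of the library, which allows levels of different genes to be set side by side. Of 12 keratinocyte markers 11 had a mean of at least 1 FPKM, and they summed to 1122 to 1304 FPKM with dacomitinib and 1425 to 1504 FPKM in controls. Of 8 melanocyte, 8 fibroblast, 6 endothelial and 6 immune markers, 1, 1, 1 and 0 reached that level. Melanocyte markers summed to 3.55 to 4.34 FPKM with dacomitinib and 2.54 to 2.87 FPKM in controls, and fibroblast markers to 2.28 to 3.63 FPKM with dacomitinib and 0.853 to 1.24 FPKM in controls. Endothelial markers summed to 10.6 to 13.5 FPKM with dacomitinib and 1.87 to 2.22 FPKM in controls, and immune markers to 0.564 to 1.08 FPKM with dacomitinib and 0.495 to 1.17 FPKM in controls. TYR, COL1A2, PDGFRA and KDR were the only listed markers with 0 fragments in all 6 libraries. Some other markers had higher values with dacomitinib. Of the melanocyte markers, PMEL had 261 fragments over the dacomitinib libraries and 106 over the controls, and MLANA 121 with dacomitinib and 81 in controls. MITF had 585 with dacomitinib and 425 in controls (limma adjusted p = 0.307), while KIT had 0 with dacomitinib and 1 in controls. The endothelial cadherin gene CDH5, which made up most of its list's sum, rose to 10.0 ± 1.39 FPKM with dacomitinib, against 1.15 ± 0.0836 FPKM in controls. COL3A1, a collagen gene, rose to 1.51 ± 0.209 FPKM with dacomitinib, against 0.705 ± 0.0716 FPKM in controls (SD, n = 3). Below the limit of the test, VWF had 628 fragments over the dacomitinib libraries and 153 over the controls, DCN 584 with dacomitinib and 11 in controls, and LUM 43 with dacomitinib and 1 in controls. The part of the marker differences in the results below was not tested. In these bulk samples, fewer cells of a type and less RNA per cell cannot be told apart.

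Promoter sequence was available for 7 of the 9 genes, in 17 RefSeq windows (GRCh38.p14) from 250 bases before to 50 bases after a start. ETV4 and ETV5 had no entry. CIC is known to bind an octamer, searched here on both strands as TGAATGAA, TGAATGGA, TCAATGAA and TCAATGGA. It was found in 2 of the 17 windows, against 3.77% of all 35116 windows. The windows were those of ETV1, which fell, and SPRED3, the only member that rose, as described below. The third stretch lies in an intron of SPRY4, before the start of its antisense gene SPRY4-AS1. It holds copies of a heptamer, TGAATGG, which is the octamer TGAATGGA without its last base. No copy in this stretch is followed by the base that would complete the octamer. The heptamer was chosen after this stretch was seen. The SPRY4-AS1 window holds it 4 times, as do 2 of all windows in total, and 3 of the copies are in the part shown. The remaining copy is part of an octamer, TGAATGGA, that begins 2 bases after the start of SPRY4-AS1. This window is not among the 17 of the members. The stretches are chr7:13991426-13991675 on the minus strand, chr19:38389541-38389611 on the plus strand and chr5:142325043-142325222 on the plus strand. Octamers and heptamers are in capitals. A match of letters is a description and does not show binding.
ETV1: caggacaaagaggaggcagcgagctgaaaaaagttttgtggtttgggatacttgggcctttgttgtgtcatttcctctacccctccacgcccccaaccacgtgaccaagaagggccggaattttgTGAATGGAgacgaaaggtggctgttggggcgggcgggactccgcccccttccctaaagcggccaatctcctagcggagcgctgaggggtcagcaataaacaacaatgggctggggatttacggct
SPRED3: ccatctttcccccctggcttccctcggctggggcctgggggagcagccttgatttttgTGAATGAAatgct
SPRY4-AS1: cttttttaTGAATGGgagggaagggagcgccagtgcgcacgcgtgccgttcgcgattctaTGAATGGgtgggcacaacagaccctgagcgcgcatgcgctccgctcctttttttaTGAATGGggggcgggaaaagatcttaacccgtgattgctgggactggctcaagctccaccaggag

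The octamer of ETV1 starts 125 bases before the start site at which the annotated gene begins, and none of the other 5 ETV1 windows holds one. That of SPRED3 starts 192 bases before an internal start, outside the exons of GENCODE release 29. Beside CIC, the AP-1 motif TGANTCA was found in 2 of the 17 windows, at an internal start of SPRED2 and at that of SPRED3, against 7.71% of all windows. The ETS motif CCGGAA was found in 5 windows, of SPRY1, SPRY2 and 3 starts of ETV1, against 17.2% of all windows. Of these, 2 ETV1 windows hold the same site (chr7:13990838-13990843), so the 5 count that site more than once. Some windows of 1 gene overlap, so they are not independent.

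Dacomitinib left the PEA3 genes at 2.64% to 4.25% of their control level, SPRY4 at 8.56%, and SPRED3 at 320% of its own. SPRY1, SPRY2, SPRED1 and SPRED2 stood at 42.7% to 51.7% of control. In none of the 9 genes, each with 3 libraries per group, did the libraries of the groups overlap, and of 13748 genes tested 67.1% likewise did not overlap. Those 13748 have a mean of at least 1 FPKM, and SPRY4, SPRED3 and ETV1 are not among them. The plot of FPKM by library shows each gene on its own axis.

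**Figure D1:**
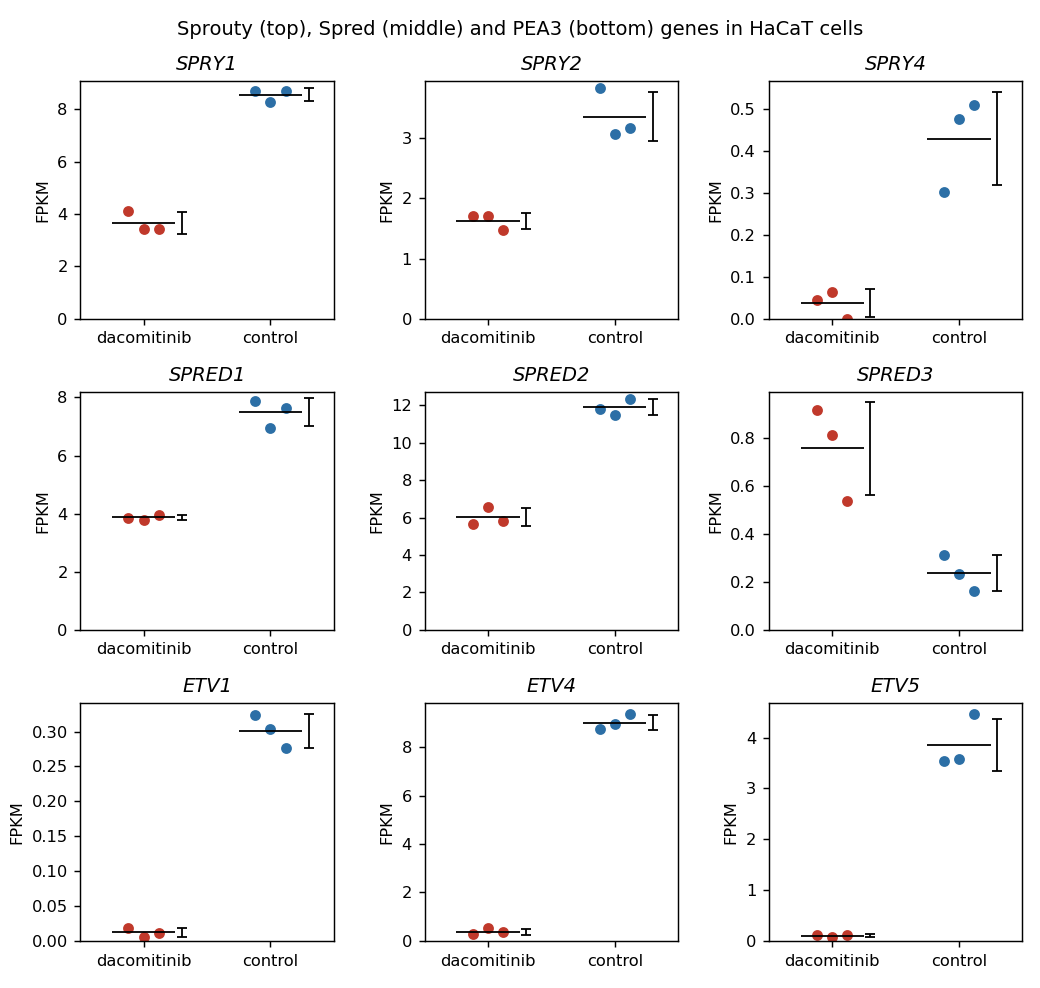
FPKM of the 9 genes in each of 6 libraries (y axis, from 0, a separate scale per gene), dacomitinib left in red and control right in blue; horizontal lines are means and bars beside them SD (n = 3). In 8 genes every dacomitinib point lies below every control point, as in ETV4 with 0.265 to 0.518 against 8.75 to 9.35 FPKM, and in SPRED3 every one lies above.

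ETV4, an ETS activator first known from its binding to the PEA3 motif (ENSG00000175832, chromosome 17, 43527844 to 43579620, GRCh38), had 0.265, 0.518 and 0.366 FPKM in the dacomitinib libraries, against 8.75, 8.93 and 9.35 FPKM in the controls. These values rest on 16, 31 and 23 fragments with dacomitinib and 447, 497 and 496 in controls. It was thus among the strongest of the 9 genes in controls and weak in every treated library. On the log2(FPKM + 1) scale ETV4 fell by 2.86 (SE 0.09, limma adjusted p = 2.10e-06).

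ETV5, a close relative of ETV4 (ENSG00000244405, chromosome 3, 186046308 to 186110318), had 0.124, 0.0727 and 0.109 FPKM with dacomitinib, against 3.53, 3.58 and 4.45 FPKM in controls. All treated libraries were far below all controls. Its treated mean was 2.64% of the control mean, the lowest share of the 9 genes. ETV5 fell by 2.13 on the log2(FPKM + 1) scale (SE 0.13, limma adjusted p = 2.31e-05).

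ETV1, the PEA3 factor best known from prostate, gastrointestinal stromal and melanocytic tumours (ENSG00000006468, chromosome 7, 13891228 to 13991425), was weak in both groups. It had 3, 1 and 2 fragments with dacomitinib and 44, 45 and 39 in controls, or 0.0186, 0.00627 and 0.0120 against 0.323, 0.303 and 0.276 FPKM. Its mean lay below the limit of 1 FPKM set for the test. In the control cells ETV1 made up 2.30% ± 0.309 of the family's FPKM (SD, n = 3).

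The mean passed that limit in 6 of the 9 genes, and in ETV4 and ETV5 only through the controls, so the count of tested members that fell, 6, is no evidence in itself. Among all 13748 genes tested, 60.2% differed and 34.8% fell. To include ETV1, SPRY4 and SPRED3, whole fragments were recovered from FPKM and gene length and tested with limma-voom for all 23161 genes with at least 10 fragments in total, a fit chosen after the data were seen. ETV1 and SPRY4 owe most of their fragments to the controls. In that fit 8 members fell and 1 rose, where 23.0% of all genes fell and 22.3% rose. The median difference was -1.23 over the 9 members and 0.10 over all genes. The members were also chosen with earlier results known, so this count and this median are no evidence in themselves.

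Without the compression of the added 1 FPKM, the PEA3 genes lay close together. By limma-voom the log2 differences were -5.20 for ETV5 (95% interval -6.07 to -4.32, adjusted p = 1.06e-09), -4.58 for ETV4 (-5.16 to -4.00, limma-voom adjusted p = 9.51e-12) and -4.38 for ETV1 (-5.90 to -2.87, limma-voom adjusted p = 3.30e-05). The intervals of all 3 overlap. Ranked from the most negative among 23161 genes, ETV5 was at position 7, ETV4 at 12, ETV1 at 15 and SPRY4 at 29, a description of genes chosen with such results known.

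**Figure D2:**
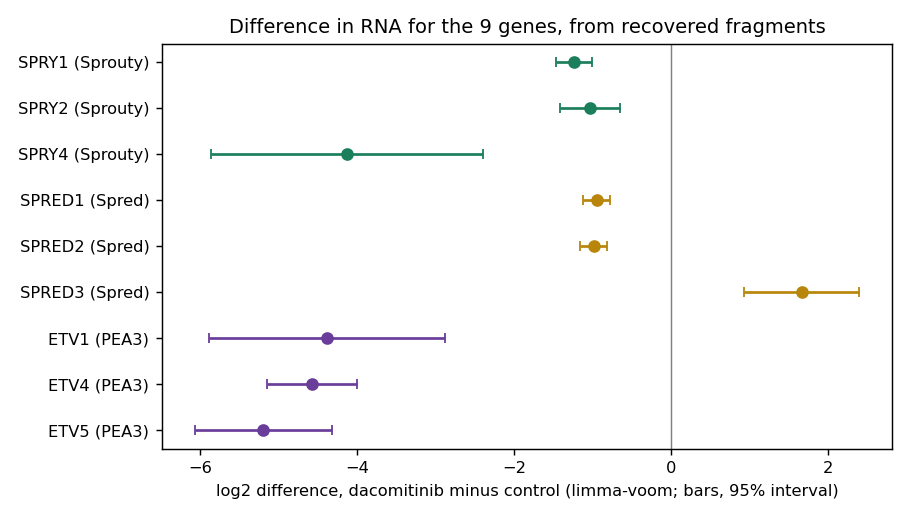
Log2 difference in RNA, dacomitinib minus control, for the 9 genes from limma-voom on recovered fragments (x axis); points are estimates and bars 95% intervals, coloured by family. The PEA3 genes and SPRY4 lie between -5.20 and -4.13, SPRY1, SPRY2, SPRED1 and SPRED2 between -1.23 and -0.95, and SPRED3 at 1.67.

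SPRY1, a Sprouty inhibitor of receptor tyrosine kinase signalling (ENSG00000164056, chromosome 4, 123396795 to 123403760), had 4.13, 3.42 and 3.41 FPKM with dacomitinib, against 8.72, 8.28 and 8.68 FPKM in controls. It was the most abundant Sprouty RNA in every library, and its treated mean was 42.7% of control. SPRY1 fell by 1.04 on the log2(FPKM + 1) scale (SE 0.08, limma adjusted p = 4.97e-05).

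SPRY2, the Sprouty known to bind the ubiquitin ligase CBL and the adaptor GRB2 (ENSG00000136158, chromosome 13, 80335976 to 80340951), had 1.71, 1.71 and 1.48 FPKM with dacomitinib, against 3.84, 3.07 and 3.18 FPKM in controls. Control replicate 1 was the highest, and the groups stayed apart. Its treated mean was 48.5% of control. SPRY2 fell by 0.73 on the log2(FPKM + 1) scale (SE 0.10, limma adjusted p = 0.000888). By limma-voom the difference was -1.03 (SE 0.18) for SPRY2 and -1.23 (SE 0.11) for SPRY1, and their 95% intervals overlap.

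SPRY4, a Sprouty inhibitor often used as a sensitive readout of ERK activity (ENSG00000187678, chromosome 5, 142310427 to 142326455), was much weaker. It had 5, 7 and 0 fragments with dacomitinib, against 28, 48 and 49 in controls, or 0.0455, 0.0643 and 0 against 0.301, 0.474 and 0.508 FPKM. At this depth 1 treated library held none. Its limma-voom difference was -4.13 (95% interval -5.86 to -2.40, adjusted p = 0.000300), and this interval lies wholly below those of SPRY1 and SPRY2.

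SPRED1, the Spred protein whose loss causes Legius syndrome and which brings neurofibromin to the membrane (ENSG00000166068, chromosome 15, 38252326 to 38357249), had 3.86, 3.79 and 3.96 FPKM with dacomitinib, against 7.89, 6.96 and 7.63 FPKM in controls. The treated libraries lay close together, and all were below the lowest control. SPRED1 fell by 0.80 on the log2(FPKM + 1) scale (SE 0.06, limma adjusted p = 6.59e-05).

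SPRED2, which like SPRED1 blocks activation of ERK by RAS (ENSG00000198369, chromosome 2, 65310851 to 65432637), had 5.68, 6.57 and 5.82 FPKM with dacomitinib, against 11.8, 11.5 and 12.4 FPKM in controls. The groups did not overlap, and it was the strongest of the 9 genes in both groups. SPRED2 fell by 0.88 on the log2(FPKM + 1) scale (SE 0.06, limma adjusted p = 5.21e-05). The limma-voom differences of SPRED2, -0.98 (95% interval -1.16 to -0.81), and SPRED1, -0.95 (-1.12 to -0.77), overlap almost wholly.

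SPRED3, the least studied Spred gene (ENSG00000188766, chromosome 19, 38388421 to 38399587), moved the other way. It had 90, 79 and 55 fragments with dacomitinib, against 26, 21 and 14 in controls, or 0.917, 0.812 and 0.539 against 0.313, 0.232 and 0.162 FPKM. The lowest treated library was thus above the highest control, but the treated libraries spread widely. SPRED3 rose 3.20-fold in mean FPKM, with a limma-voom difference of 1.67 (95% interval 0.93 to 2.40, adjusted p = 0.000509). It ranked 2539 from the top of 23161 genes, so a rise of this size was common.

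**Figure D3:**
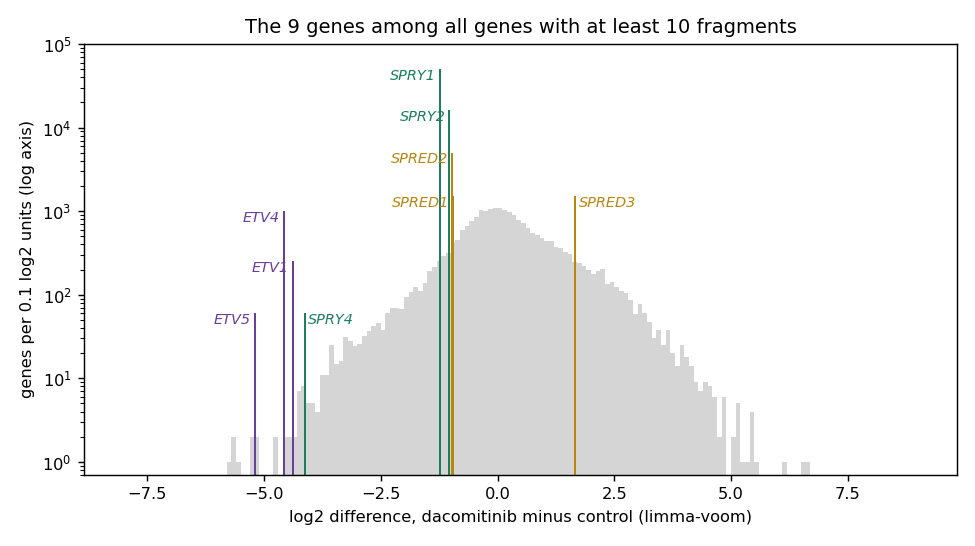
Number of genes (y axis, log scale) in bins of 0.1 of the limma-voom log2 difference, dacomitinib minus control (x axis), for 23161 genes in grey, with the 9 genes as coloured lines whose heights only separate the names. ETV5, ETV4, ETV1 and SPRY4 stand in the thin left tail, while SPRED3 at 1.67 stands in the broad right shoulder.

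The order of the levels differed between the groups. With dacomitinib it was SPRED2 (6.02 FPKM), SPRED1 (3.87), SPRY1 (3.65), SPRY2 (1.63), SPRED3 (0.756), ETV4 (0.383), ETV5 (0.102), SPRY4 (0.0366) and ETV1 (0.0123), and in controls SPRED2 (11.9 FPKM), ETV4 (9.01), SPRY1 (8.56), SPRED1 (7.49), ETV5 (3.85), SPRY2 (3.36), SPRY4 (0.428), ETV1 (0.301) and SPRED3 (0.236). Neighbours whose libraries overlapped were SPRED1 with SPRY1 and SPRY4 with ETV1 under dacomitinib, and ETV5 with SPRY2, SPRY4 with ETV1 and ETV1 with SPRED3 in controls. ETV4 thus stood next to the strongest feedback inhibitors in controls and below SPRED3 in treated cells.

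Summed over each family, PEA3 FPKM was 0.497 ± 0.0952 with dacomitinib and 13.2 ± 0.800 in controls, or 3.78% of control. The Sprouty sum was 5.32 ± 0.516 with dacomitinib and 12.4 ± 0.513 FPKM in controls, or 43.1%. The Spred sum was 10.7 ± 0.459 with dacomitinib and 19.6 ± 0.802 FPKM in controls, or 54.3% (SD, n = 3 for each sum). In controls the PEA3 and Sprouty sums overlapped, at 12.6 to 14.1 and 11.8 to 12.9 FPKM. In treated libraries they were far apart, at 0.407 to 0.597 and 4.88 to 5.89 FPKM.

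The share of each member within its family was also compared, though 3 libraries per group cannot show that shares are alike. SPRY1 made up 68.6% ± 2.36 of Sprouty FPKM with dacomitinib and 69.3% ± 1.33 in controls (n = 3, exact permutation p = 0.6, two-sided). ETV4 made up 75.7% ± 10.9 of PEA3 FPKM with dacomitinib and 68.5% ± 1.83 in controls (n = 3, exact permutation p = 0.4), with treated libraries from 65.1% to 86.8% on few fragments. SPRED3 made up 7.08% ± 1.78 of Spred FPKM with dacomitinib and 1.20% ± 0.380 in controls, and SPRED2 made up 56.5% ± 2.25 with dacomitinib and 60.6% ± 1.39 in controls. The share of SPRY4 was 0.670% ± 0.625 with dacomitinib and 3.49% ± 0.990 in controls. The groups did not overlap for these last 3 shares (n = 3, exact permutation p = 0.1 for each, the smallest this design allows, and 0.3 after adjustment over 9 shares). The remaining 4 shares overlapped.

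**Figure D4:**
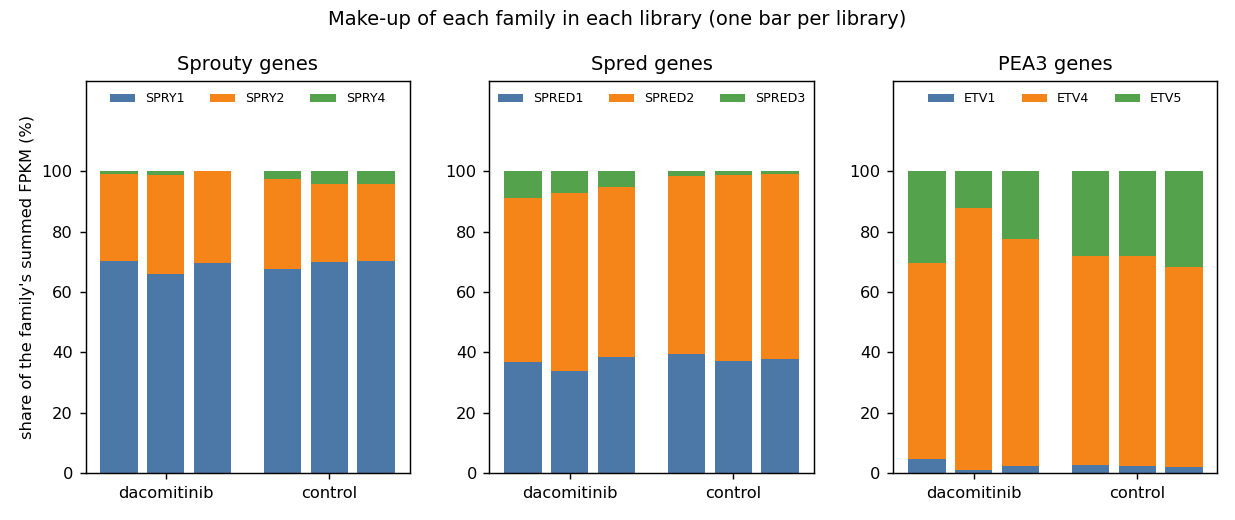
Share of each gene in the summed FPKM of its family (y axis, percent), 1 bar per library, dacomitinib at the left and control at the right of each panel. SPRED3 takes 5.22% to 8.77% of the Spred bars with dacomitinib and 0.806% to 1.56% in controls, while SPRY1 keeps 65.9% to 70.2% of every Sprouty bar.

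The authors' FPKM use a library size that is 1.07 ± 0.0244 times the library's own fragments with dacomitinib and 0.952 ± 0.00449 times in controls (SD, n = 3). With TPM, which scales each library to its own sum, the median log2 difference of all tested genes moved to 0.23 (-0.06 as deposited). No member changed direction. Relative to control, the treated means were then 3.27% for ETV5, 5.34% for ETV4, 5.03% for ETV1, 10.7% for SPRY4, 53.1% for SPRY1, 60.5% for SPRY2, 63.2% for SPRED2 and 64.4% for SPRED1, and SPRED3 was at 400% of its control level.

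Genes that overlap a member could share its fragments, since strand is not stated for the counting. DHX8, an RNA helicase gene on the other strand that spans ETV4 and shares 68 exonic bases with it, had 8.78, 7.71 and 8.27 FPKM with dacomitinib, against 10.8, 10.5 and 11.3 FPKM in controls. DHX8 thus had 7.71 to 8.78 FPKM in the libraries in which ETV4 was below 0.6 FPKM, which is below every control. Whether the 2 genes share fragments was not tested. The other 7 overlapping genes, which lie at SPRY4, SPRED2 and ETV5, had at most 3 fragments per group. Among them were SPRY4-AS1, with 0 fragments over the dacomitinib libraries and 1 over the controls, and ETV5-AS1, with 0 over the dacomitinib libraries and 3 over the controls. The remaining 5 members overlap no other gene of the table.

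The lists that follow are set beside all tested genes, of which 34.8% fell and 25.4% rose, with a median log2(FPKM + 1) difference of -0.06. With TPM 61.8% of them differed, 19.8% being lower and 42.0% higher, and the median was 0.23. Of 30 other feedback and target genes of ERK, 25 were tested, and 16 fell and 2 rose, with a median of -0.46. DUSP6, a phosphatase that inactivates ERK, averaged 0.353 ± 0.180 FPKM with dacomitinib and 15.1 ± 0.563 FPKM in controls. FOSL1, a subunit of AP-1, fell to 2.15 ± 0.308 FPKM with dacomitinib, against 19.6 ± 2.49 FPKM in controls. The 2 that rose were EPHA4, an ephrin receptor, at 3.60 ± 0.422 FPKM with dacomitinib and 0.373 ± 0.117 FPKM in controls, and the phosphatase DUSP5, at 12.6 ± 1.08 FPKM with dacomitinib and 7.61 ± 1.05 FPKM in controls (SD, n = 3). With TPM 12 fell and 8 rose, with a median of -0.31. DUSP6 passed the limit of 1 FPKM only through the controls. So did DUSP4, which also fell, at 0.701 ± 0.201 FPKM with dacomitinib and 2.44 ± 0.217 FPKM in controls. DUSP4 was named after its values were seen. EPHA4 passed only through the dacomitinib libraries, so the counts of this list are no evidence in themselves.

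Of 11 core genes from RAS to ERK, 10 were tested, and 5 fell and 0 rose, with a median of -0.22. With TPM 3 fell and 3 rose, and with quantile normalization 3 fell and 2 rose. Scaling by the median ratio of genes left 5 that fell and 0 that rose. In FPKM, falls also outnumbered rises over all tested genes. HRAS, a RAS GTPase, fell by 0.85 on the log2(FPKM + 1) scale (SE 0.07), a call that also held with TPM. Of 13 relatives and partners of Sprouty and Spred, 11 were tested, and 5 fell and 3 rose, while 1 fell and 6 rose with TPM. These counts are near the shares of all tested genes, and turn with the scaling as those do. CBLB, a ubiquitin ligase of the CBL family, rose to 8.93 ± 0.706 FPKM with dacomitinib, against 3.31 ± 0.339 FPKM in controls. SOS2, an activator of RAS, rose by 0.71 (SE 0.10) and the phosphatase PTPN11, which also promotes RAS signalling, fell by 0.64 (SE 0.07). CAV1, a caveolar protein reported to bind Sprouty, fell by 0.42 (SE 0.07), a call lost with TPM. NF1, the partner of Spred, had 15.3 ± 0.0536 FPKM with dacomitinib and 18.2 ± 0.163 FPKM in controls. It was named after its values were seen, as were SPRY3 and IL17RD. SPRY3, the remaining Sprouty gene, and IL17RD, another feedback inhibitor, were below the limit, with 176 and 166 fragments over the dacomitinib libraries and 75 and 154 over the controls.

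Among proteins known to act on PEA3 genes or proteins, 10 of 11 were tested, and 4 fell and 1 rose, while 0 fell and 5 rose with TPM. The share that fell is near that of all tested genes, and the split turns with the scaling in the same way. CIC itself, named after its values were seen, had 8.19 ± 0.663 FPKM with dacomitinib and 8.14 ± 0.425 FPKM in controls, a log2(FPKM + 1) difference of 0.01 (SE 0.07, limma adjusted p = 0.937). FBXW7, a ubiquitin ligase subunit, rose by 0.63 (SE 0.07). ATXN2L fell by 0.43 (SE 0.05) and the kinase gene RPS6KA1 fell by 0.33 (SE 0.06), and both calls were lost with TPM. ATXN2L is a relative of ataxin-2, and its place in this list is doubtful, since the known CIC partners are ATXN1 and ATXN1L. Neither of those passed the test in FPKM. Their log2(FPKM + 1) differences were 0.13 (SE 0.08) for ATXN1 and 0.16 (SE 0.07) for ATXN1L, named after their values were seen. Calls with TPM, where 5 of the 10 rose, are not given for CIC, ATXN1 or ATXN1L and may differ.

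Calls among the other ETS factors went both ways. Of 24, 15 were tested, and 7 rose and 4 fell, with a median of 0.11, while 8 rose and 0 fell with TPM, with a median of 0.42. Over all tested genes falls outnumbered rises in FPKM and rises outnumbered falls with TPM. ELF3, an epithelial ETS factor, rose to 64.0 ± 7.41 FPKM with dacomitinib, against 23.3 ± 1.79 FPKM in controls, and ETS1 to 20.7 ± 1.06 FPKM with dacomitinib, against 9.90 ± 0.384 FPKM in controls. EHF, another epithelial factor, fell by 0.28 (SE 0.05) and FLI1 fell by 0.29 (SE 0.10), but neither call held with TPM, where EHF was at 0.04. FLI1 was also lost without dacomitinib replicate 2 or 3 and without control replicate 1 or 2 (limma adjusted p of up to 0.587 over these alternatives and TPM).

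Of 13 genes that PEA3 factors are known to activate in other cells, 8 were tested, and 5 rose and 1 fell, with a median of 0.57 (0.95 with TPM, with the same counts). In all tested genes 25.4% rose in FPKM and 42.0% with TPM, and 8 genes are few to set beside these shares. The collagenase gene MMP13 rose to 14.7 ± 5.36 FPKM with dacomitinib, against 1.73 ± 0.639 FPKM in controls, and the matrilysin gene MMP7 to 7.07 ± 0.644 FPKM with dacomitinib, against 1.36 ± 0.445 FPKM in controls. MMP1, a collagenase gene, fell to 0.765 ± 0.652 FPKM with dacomitinib, against 2.47 ± 0.513 FPKM in controls (limma adjusted p = 0.0133). It passed the limit of 1 FPKM only through the controls. Over the other settings its limma or limma-voom adjusted p reached 0.0498, so this call is near the threshold.

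**Figure D5:**
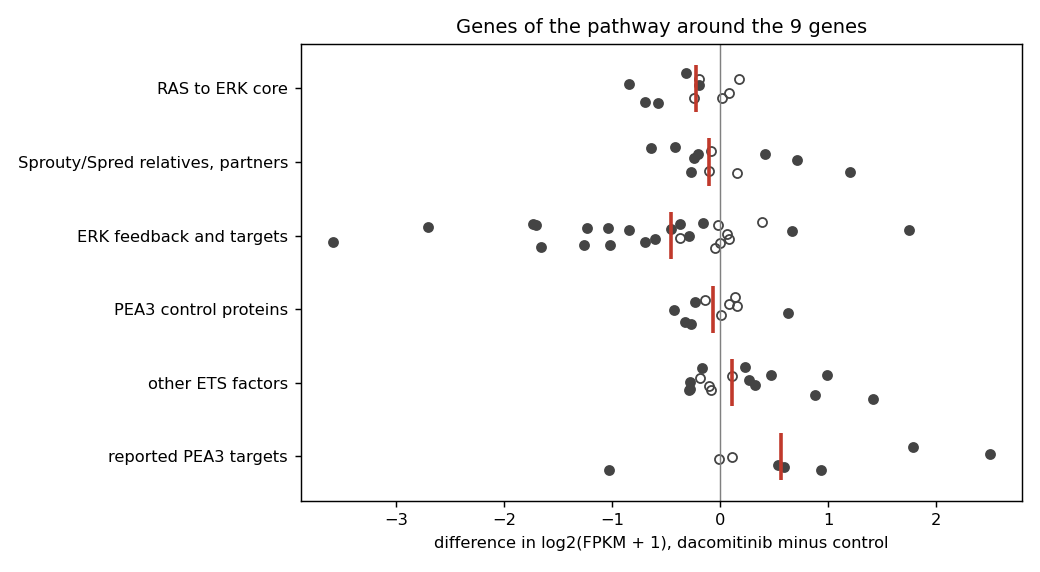
Difference in log2(FPKM + 1), dacomitinib minus control (x axis), for each tested gene of 6 lists (rows; height within a row only separates points); filled points passed limma at an adjusted p of 0.05, open points did not, and red bars are list medians. The ERK feedback and target list has a median of -0.46 and the reported PEA3 targets 0.57.

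Genes of like pattern were found for the strongest member of each family in controls, by the root mean square difference over the 6 libraries in log2(FPKM + 1) minus the control mean. For ETV4 the 3 nearest protein-coding genes were DEPDC1 (0.0595), ZWINT (0.0634) and HJURP (0.0718), all known from cell division. For SPRY1 they were YDJC (0.0128), PRPF19 (0.0249) and NPM1 (0.0277). For SPRED2 they were RAD51D (0.0156), SLC4A7 (0.0321) and ELOVL5 (0.0425). NPM1 had 148 ± 9.59 FPKM with dacomitinib and 302 ± 6.94 FPKM in controls, so a near pattern on this scale says nothing of a like level. Nor does it mean a like ratio. DEPDC1 had 2.83 ± 0.327 FPKM with dacomitinib and 27.4 ± 1.31 FPKM in controls. ETV4 had 0.383 FPKM with dacomitinib and 9.01 FPKM in controls, a deeper fall in ratio.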

How the data were processed

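The authors deposited FPKM per gene for 6 HaCaT libraries, unpooled, with gene length and position. The submitters' processing notes name GRCh38 and the tools fastp, CASAVA, HISAT2, DESeq2 1.20.0 and featureCounts, with no role stated. All 58735 gene identifiers were in GENCODE release 29 with the same start and end, and 58724 deposited lengths equalled the union of its exons.

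Multiplied by gene length, 100% of values came out as whole fragments (tolerance 0.01), which gave fragments per gene. FPKM are not counts, so limma 3.58.1 (R 4.3.3) with a mean-variance trend was run on log2(FPKM + 1) for genes with a mean of at least 1 FPKM, two-sided, at a Benjamini-Hochberg adjusted p of 0.05 over all genes tested. This scale understates changes of weak genes. The limma-voom fit used the library sizes in the authors' FPKM. Levels are means ± SD (n = 3), and differences are dacomitinib minus control, with standard errors (SE). Intervals on few fragments do not cover error before counting. Named genes are all 9 members and, per list, up to 2 with the largest rise and 2 with the largest fall past the threshold, genes overlapping a member and genes of like pattern. A gene that this rule names is not reported here. Members and lists were chosen with earlier results of these data known.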

Additional observations from a re-analysis of the deposited data

How the results depend on the processing

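Under 16 other settings (pseudocounts, filters, scalings, variance models, limma-voom, a block and leaving out each library) and 1 added after the data were seen, no tested member changed direction or lost its call where it was tested. The 6 members called lower became 3 when genes needed a mean of 5 FPKM, since only 3 were then tested, and 8 without a filter and with limma-voom on genes with 10 fragments. Each of those 2 settings also called 1 member higher, SPRED3, against 0 as reported. Over all genes, the 4778 lower calls were 2721 with TPM, and the 3493 higher calls were 5779 with TPM and 1946 at a mean FPKM of at least 5, so the background split of calls rests on the scaling. Leaving out 1 library gave 6 lower members each time. The labels do not say that the numbers in the column names pair samples. Correlations of same-numbered deviations were -0.0158 to 0.0402, and those of differently numbered ones -0.0761 to 0.0533. With so few libraries these values cannot settle whether samples were paired. A fit with the replicate block also called 6 members lower and 0 higher. Depth limits ETV1 and SPRY4, with 6 and 12 fragments over the dacomitinib libraries.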
